A study of Homo sapiens with 8 samples.

Results

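The melanophilin, RAB27 and myosin V transport genes were examined in SKBR3, an established human breast cancer cell line that carries an amplified ERBB2 (HER2) gene. The group consists of 10 genes, taken by symbol from the 30434 genes of the count table: the adaptor MLPH, the GTPase genes RAB27A and RAB27B, the motor genes MYO5A, MYO5B and MYO5C, and the synaptotagmin-like genes SYTL1, SYTL2, SYTL4 and SYTL5. RNA was sequenced from 4 control libraries (genotype WT in the labels) and 4 libraries of cells with stable FOXA1 knockdown, made with lentiviruses carrying 3 short hairpin RNAs against FOXA1, a pioneer transcription factor of luminal breast cells. Both kinds of cells are SKBR3 grown in the same medium. The labels describe the knockdown as a stable line, and what virus the controls received and whether replicates were separate cultures are not given in the sources used here, so the spread between libraries may be technical. The 10 genes were proposed with the differences between these groups known, so those differences are described without a test. Tests are given only for other genes. Their lists too were chosen with earlier results of these data known, and neighbours were added after values were seen, so these tests are descriptive. Values after ± are SDs over the libraries of a group (n = 4).

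RAB27 proteins are small GTPases that sit on secretory and lysosome-related organelles and, when bound to GTP, recruit effectors. Melanophilin is such an effector: in pigment cells it ties RAB27A on the melanosome to the actin motor myosin Va, and loss of any of these proteins causes the pigment dilution of Griscelli syndrome. The synaptotagmin-like proteins bind RAB27 through a related domain and dock vesicles at the plasma membrane through their C2 domains. In glandular epithelia RAB27 and the class V myosins take part in granule secretion, exosome release and apical recycling.

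The control libraries held 21838121 to 23786684 counts each and the knockdown libraries 19087878 to 23503753. FOXA1 (chromosome 14, 37589984 to 37596059) averaged 192 ± 1.65 CPM in the controls and 3.96 ± 0.340 CPM after knockdown, 2.06% of the control level, where CPM is counts per 1000000 counts of the TMM-scaled library. Of the epithelial markers, KRT8 was between 4280.4 and 4798 CPM in control and between 5191 and 6049 in knockdown. KRT18 and EPCAM were also higher, at 149.5% and 126% of control, while KRT7, KRT19 and ERBB2 were lower, at 28.9%, 27.3% and 18.3%. Markers of other cells were low beside these epithelial markers. Summed CPM over the 9 melanocyte markers with a row was 6.77 to 9.07 in control and 17.0 to 18.1 in knockdown. DCT, SLC45A2 and SOX10 were at 3 counts or fewer in every library. Within that list MITF, the melanocyte transcription factor gene, averaged 5.96 ± 0.697 CPM in the controls against 1.32 ± 0.137 after knockdown, and PMEL, the melanosome fibril protein gene, 1.11 ± 0.176 against 13.6 ± 0.679 CPM. TYRP1, a pigment enzyme gene, had 2, 0, 3 and 3 counts in control and 49, 44, 40 and 52 in knockdown. For 5 fibroblast markers the sums were 5.27 to 6.98 and 10.8 to 11.9, with COL1A2 and DCN at 3 counts or fewer in every library. COL3A1 rose from 0.0222 ± 0.0257 to 4.32 ± 0.193 CPM and PDGFRB from 0.410 ± 0.110 to 2.83 ± 0.476 CPM. COL1A1 fell from 5.38 ± 0.755 to 4.33 ± 0.221 CPM. The sums were 5.68 to 7.37 and 1.43 to 2.47 for 5 leukocyte markers, with PTPRC at 3 counts or fewer. Of these CD68 fell from 4.94 ± 0.632 to 0.589 ± 0.406 CPM and ITGAM from 0.361 ± 0.0826 to 0.0924 ± 0.0456 CPM. CD14 rose from 0.181 ± 0.0630 to 0.533 ± 0.0905 CPM, and the groups of LYZ overlapped. For 4 endothelial markers the sums were 20.7 to 22.1 and 19.8 to 22.4. Among these CDH5 rose from 16.1 ± 0.295 to 20.1 ± 1.36 CPM, and VWF fell from 5.22 ± 0.584 to 0.845 ± 0.218 CPM. The part of other cell types in the results was not tested, and in bulk RNA fewer cells of a type cannot be told apart from less RNA per cell. Pairs of control libraries gave a chi-square per degree of freedom of 2.16 to 6.21, the highest with control replicate 3.

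All 10 genes passed the filter on low counts. In knockdown, 7 of them lay below every control library (MLPH, RAB27A, RAB27B, MYO5A, MYO5B, MYO5C and SYTL1), 2 lay above every control library (SYTL2 and SYTL4), and SYTL5 overlapped. Over all 16430 genes tested 72.0% had groups that did not overlap (35.0% below, 36.9% above), and since the genes were chosen on this contrast nothing is read from the comparison. Their log2 fold changes, knockdown minus control, ran from -6.51 to 0.66 with a median of -1.11, beside a median of 0.02 over all genes tested. A log2 fold change of -1 or below was found for 5 of the 10, and for 13.6% of all genes tested. Without control replicate 3, an alternative added after the data were seen, 8 lay below every control library and 2 above; over all genes the shares were then 37.3% and 38.4%.

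**Figure D1:**
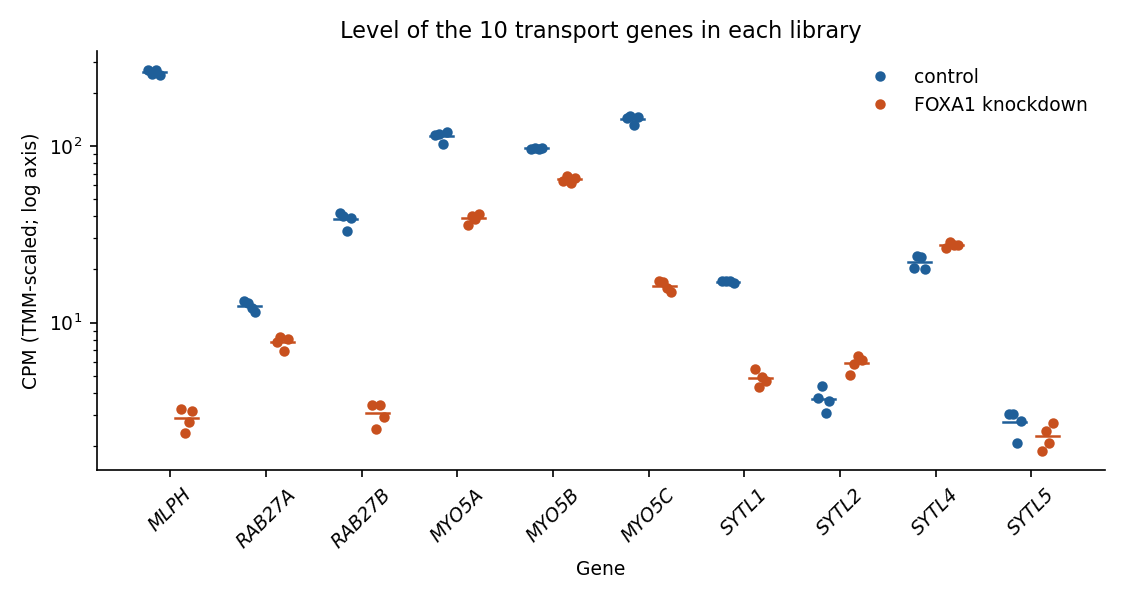
Level of each of the 10 genes in each library, in TMM-scaled CPM on a log axis, with 4 control and 4 FOXA1 knockdown libraries per gene as points and the group mean as a line. MLPH, the highest gene in control at 254 to 271 CPM, lies between 2.38 and 3.23 CPM in knockdown, while SYTL4 and SYTL2 lie above their controls and SYTL5 overlaps.

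The sequence upstream of the start sites is shown for the 3 genes that were lowered most. Also shown is the only window of the group that holds TGTTTAC or TGTTTGC, forms of the forkhead motif. The targeted factor belongs to the forkhead family. RefSeq (GRCh38.p14) promoter entries matched 9 of the 10 genes, with 17 windows, and the 250 bases before each start were searched on both strands for TGTTTAC and TGTTTGC. Letters are 5′ to 3′ on the gene's strand, capitals mark a motif match, and bases inside any GENCODE 29 exon are left out. The windows are chr2:237487001-237487167 (plus strand) for MLPH, chr18:54717607-54717856 (plus) for RAB27B, chr15:52295805-52296054 (minus) for MYO5C and chrX:38033284-38033533 (plus) for the second listed start of SYTL5.
MLPH: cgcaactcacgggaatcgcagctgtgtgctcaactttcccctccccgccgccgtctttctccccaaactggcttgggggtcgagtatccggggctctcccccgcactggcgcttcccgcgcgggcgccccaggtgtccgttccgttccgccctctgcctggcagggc
RAB27B: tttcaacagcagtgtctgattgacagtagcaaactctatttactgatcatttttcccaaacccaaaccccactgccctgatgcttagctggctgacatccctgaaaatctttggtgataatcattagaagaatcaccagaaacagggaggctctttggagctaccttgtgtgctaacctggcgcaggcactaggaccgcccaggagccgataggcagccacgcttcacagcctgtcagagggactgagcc
MYO5C: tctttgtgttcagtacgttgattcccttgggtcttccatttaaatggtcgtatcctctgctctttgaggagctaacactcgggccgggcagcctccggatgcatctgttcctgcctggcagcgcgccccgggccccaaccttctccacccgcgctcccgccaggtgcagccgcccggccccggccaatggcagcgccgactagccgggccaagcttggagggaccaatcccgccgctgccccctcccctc
SYTL5: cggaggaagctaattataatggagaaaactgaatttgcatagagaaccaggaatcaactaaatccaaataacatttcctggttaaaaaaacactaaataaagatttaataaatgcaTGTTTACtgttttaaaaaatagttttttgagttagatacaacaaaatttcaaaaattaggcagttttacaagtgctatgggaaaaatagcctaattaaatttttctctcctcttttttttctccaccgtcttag
Of the 17 windows, 1 held either searched motif, TGTTTAC on the plus strand of SYTL5, starting 134 bases before the start site. Either motif was found in 6.09% of 35116 promoter windows of the same length (TGTTTAC in 2.98%, TGTTTGC in 3.23%). The match lies before a start of the gene whose groups overlapped, and the windows of MLPH, RAB27B and MYO5C held neither searched motif. This says only that these letters are not in these windows. Other forms of the forkhead motif were not searched for. RefSeq lists 2 starts each for MLPH, RAB27B and SYTL5, and the windows of one gene differ in composition. G or C make up 72.4% of the full MLPH window shown, with 29 CG pairs, and 41.6% of the other, with 2. For RAB27B they make up 50.4% of the window shown, with 4 CG pairs, and 56.0% of the other, with 12. Both MLPH windows lie inside the gene as GENCODE 29 places it, from 237485428 on. The sequence before that position was not searched.

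The adaptor showed the largest difference of the group. MLPH (ENSG00000115648.14, chromosome 2, 237485428 to 237555318, plus strand, positions here and below from GENCODE 29, GRCh38) was counted 5914, 5614, 5662 and 5899 times in the 4 controls, and 76, 58, 54 and 68 times in the 4 knockdown libraries. The groups were far apart and each was tight. Scaled to CPM this was 271, 255, 269 and 254 against 3.23, 2.38, 2.75 and 3.15, with means of 262 ± 8.88 and 2.88 ± 0.393. Knockdown libraries thus held 1.10% of the control level, a 91.2-fold difference. The log2 fold change was -6.51 (SE 0.104), and 0.797% of the tested genes were lowered further. Per kilobase of exon it ranked 1269 among 13278 tested protein-coding genes in control and 11490 in knockdown. No counted gene of the annotation shares exon sequence with MLPH.

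The nearest tested protein-coding gene on either side of MLPH changed far less. COPS8, a signalosome subunit gene before it, fell from 43.9 ± 1.26 to 39.9 ± 1.52 CPM (adjusted p of 0.00992 by edgeR). RAB17, which encodes an epithelial RAB GTPase and lies after it, fell from 56.2 ± 2.73 to 30.1 ± 1.64 CPM (a log2 difference of -0.90, with an adjusted p of 2.18e-14 by edgeR's quasi-likelihood test). The second tested protein-coding gene before MLPH, the homeobox gene GBX2, had a mean of 0 CPM in control and 1.10 ± 0.156 CPM in knockdown. Its log2 fold change was 7.60, in the other direction from that of MLPH. With no counts of GBX2 in the controls, the size of this value depends on the prior count that edgeR adds. It therefore cannot be ranked against the size of the MLPH change. The median log2 fold change of the 50 tested genes nearest to MLPH was 0.11.

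Genes whose profile over the 8 libraries was closest to that of MLPH were found among 12419 others with a mean of at least 50 counts, by the root mean square difference of log2 CPM after centring each gene on its own mean. They were ALDH2, the mitochondrial aldehyde dehydrogenase (difference 0.124, mean level 320.0 ± 9.94 against 4.03 ± 0.416 CPM), the long non-coding RNA DSCAM-AS1 (0.151) and TMSB4X, which encodes the actin-binding peptide thymosin beta-4 (0.151). The profiles share a fold change of similar size, at -6.31, -6.56 and -6.45 on the log2 scale. ALDH2 shares 680 exon bases with another counted gene on its strand, so its counts are uncertain. Of the other transport genes RAB27B came nearest, at rank 255 with a difference of 1.44, and MYO5C followed at rank 328.

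The GTPase genes differed in how far they were lowered. RAB27A (ENSG00000069974.16, chromosome 15, 55202966 to 55319113, minus strand), which encodes the isoform that melanophilin binds on melanosomes, measured 13.2, 12.9, 12.1 and 11.5 CPM in control replicates 1 to 4 and 7.74, 8.28, 6.93 and 8.10 CPM in knockdown replicates 1 to 4. RAB27B (ENSG00000041353.10, chromosome 18, 54717860 to 54895516, plus strand), its paralogue in secretory cells, measured 41.7, 40.1, 33.0 and 39.0 CPM in control and 3.40, 2.50, 3.41 and 2.91 CPM in knockdown. Neither gene's groups overlapped, and control replicate 3 was the lowest control for RAB27B. Knockdown kept 62.4% of the control level of RAB27A (log2 fold change -0.67, SE 0.0722) and 7.96% of that of RAB27B (log2 fold change -3.66, SE 0.130). RAB27A shares 183 exon bases with PIGBOS1 on its strand and 154 with PIGB on the other, with means of 114.25 and 277.00 counts, so part of its count could belong to them.

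The order of the pair was exchanged. Per kilobase of exon, RAB27B made up 69.9% ± 1.94 of the summed RAB27 level in control and 23.0% ± 3.78 in knockdown. Its share ran from 67.2% to 71.9% in the control libraries and from 18.5% to 27.1% in the knockdown libraries. The summed level per kilobase was 24.3% of control, 7.39 ± 0.594 against 1.80 ± 0.0681 CPM per kb.

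**Figure D2:**
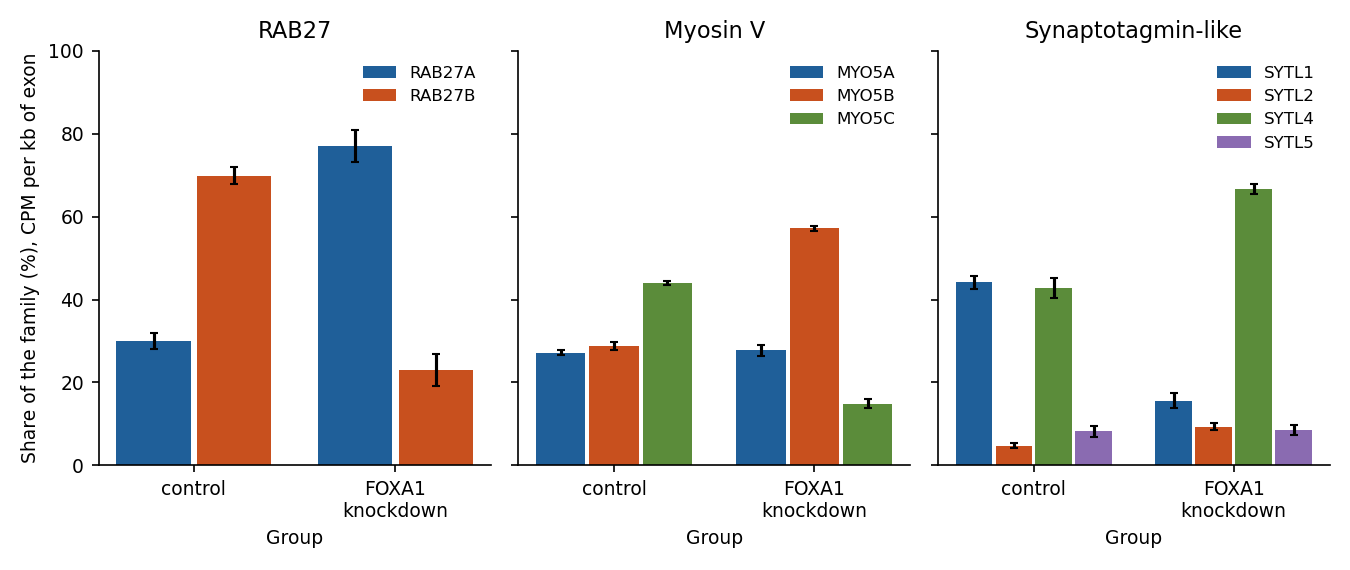
Share of each paralogue in the summed level of its family, in percent of CPM per kilobase of annotated exon, as means with SD bars over 4 libraries per group. RAB27B goes from 69.9% to 23.0% of RAB27, MYO5C from 44.0% to 14.9% of myosin V, and SYTL4 from 42.8% to 66.7% of the 4 synaptotagmin-like genes.

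All 3 class V myosin genes, which encode actin motors, were lower in knockdown, in different degrees. MYO5C (ENSG00000128833.13, chromosome 15, 52192322 to 52295798, minus strand), the form found mainly in glandular epithelia, measured 145, 148, 132 and 146 CPM in control and 17.1, 17.0, 15.7 and 14.9 CPM in knockdown. MYO5A (ENSG00000197535.14, chromosome 15, 52307283 to 52529050, minus strand), the melanosome motor, measured 116, 117, 103 and 119.8 CPM in control and 35.7, 40.0, 38.9 and 41.5 CPM in knockdown. For both, control replicate 3 was the lowest control and still far above every knockdown library. MYO5B (ENSG00000167306.20, chromosome 18, 49822813 to 50195093, minus strand), the motor of RAB11 recycling endosomes, measured 96.9, 98.0, 96.1 and 97.8 CPM in control and 63.3, 67.9, 61.5 and 66.3 CPM in knockdown. Its control libraries lay within 2 CPM of each other and above all knockdown libraries.

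Of the control level, knockdown kept 11.4% for MYO5C (log2 fold change -3.14, SE 0.0606), 34.2% for MYO5A (-1.55, SE 0.0674) and 66.6% for MYO5B (-0.58, SE 0.0328). In CPM the drop was largest for MYO5C, at -126, against -75.0 for MYO5A and -32.4 for MYO5B. Per kilobase of exon, MYO5C was the leading motor in control, with 44.0% ± 0.460 of the family, and MYO5B led in knockdown, with 57.2% ± 0.642 against 28.8% ± 1.01 in control. The share of MYO5A was 27.2% ± 0.688 in control and 27.8% ± 1.32 in knockdown, with overlapping ranges. With the longest transcript as the length it was 23.3% ± 0.580 and 25.9% ± 1.32, and the ranges did not overlap. The summed level of the family per kilobase was 33.5% of control. MYO5B overlaps the antisense gene SNHG22 and MYO5C the opposite-strand gene CERNA1, with means of 3.00 and 4.75 counts, few beside their own means of 1794 and 1753.

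**Figure D3:**
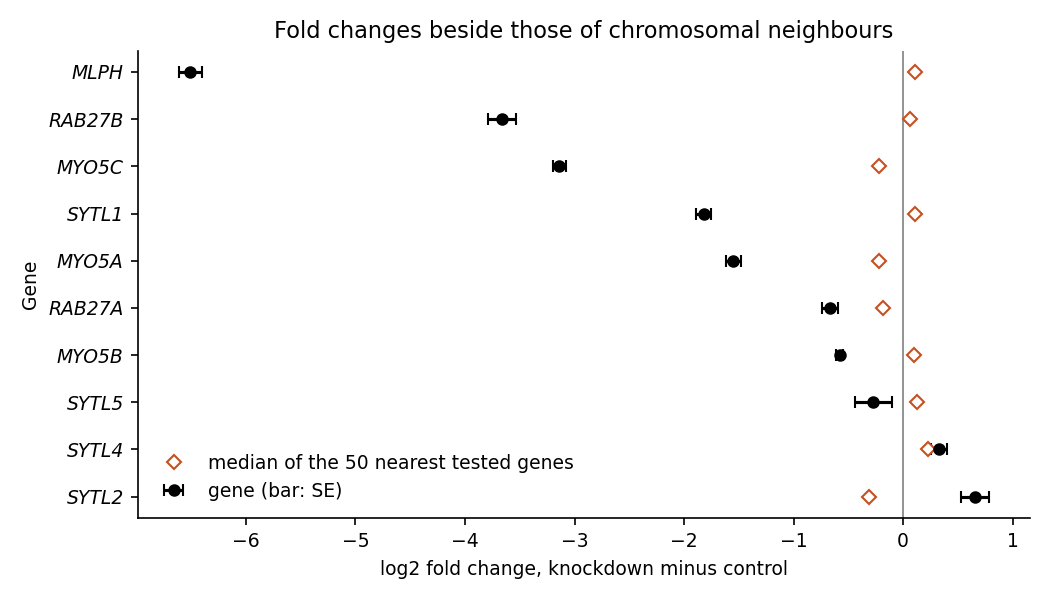
Log2 fold change of each of the 10 genes, knockdown minus control, with SE bars from the replicate spread (4 libraries per group), and diamonds for the median of the 50 nearest tested genes. The neighbours' medians stay between -0.31 and 0.23, while the genes run from -6.51 for MLPH to 0.66 for SYTL2; the diamond of SYTL4 lies beside its own value.

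The synaptotagmin-like genes were divided. SYTL1 (ENSG00000142765.18, chromosome 1, 27342020 to 27353937, plus strand), an effector of vesicle docking, measured 17.1, 17.3, 17.1 and 16.7 CPM in control and 5.44, 4.34, 4.89 and 4.67 CPM in knockdown. Every knockdown library was lower, and 28.3% of the control level was kept (log2 fold change -1.82, SE 0.0685). SYTL4 (ENSG00000102362.15, chromosome X, 100674491 to 100732123, minus strand), which encodes granuphilin, measured 20.3, 24.0, 23.6 and 20.2 CPM in control and 26.6, 28.8, 27.4 and 27.6 CPM in knockdown. All knockdown libraries were above all controls. The level in knockdown was 125% of control (log2 fold change 0.33, SE 0.0725), and with the median of its 50 nearest tested genes taken out the log2 fold change was 0.10. SYTL4 shares 1298 exon bases with SRPX2 on the opposite strand, which averaged 32.75 counts against 550.4 for SYTL4.

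SYTL2 (ENSG00000137501.17, chromosome 11, 85694224 to 85811159, minus strand), whose product docks granules in melanocytes and epithelia, measured 3.76, 4.36, 3.09 and 3.58 CPM in control and 5.06, 5.82, 6.47 and 6.11 CPM in knockdown. The groups did not overlap, and the level in knockdown was 159% of control (log2 fold change 0.66, SE 0.127). SYTL5 (ENSG00000147041.12, chromosome X, 38006582 to 38128819, plus strand), the least abundant in counts, with a mean of 55.38, measured 3.02, 3.04, 2.09 and 2.76 CPM in control and 1.87, 2.42, 2.09 and 2.68 CPM in knockdown. Its groups overlapped through control replicate 3. The group means were 1.10 pooled SD apart on the log2 scale (log2 fold change -0.27, SE 0.169), against 3.22 for SYTL4, 3.72 for SYTL2 and 44.2 for MLPH. Without control replicate 3 the remaining controls, at 2.76 to 3.04 CPM, lay above every knockdown library, and the log2 fold change was -0.38.

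Within these 4 genes SYTL1 made up 44.2% ± 1.55 of the level per kilobase in control and 15.6% ± 1.86 in knockdown, and SYTL4 42.8% ± 2.49 and 66.7% ± 1.16. The summed level of the 4 per kilobase was 80.6% of control. SYTL3, which averaged 15.6 ± 0.164 CPM in control and 1.83 ± 0.389 CPM in knockdown, is not part of these shares. Over all 10 genes the order per kilobase of exon in control was MLPH (34.9 CPM per kb), MYO5C (14.2), MYO5B (9.27), MYO5A (8.78), RAB27B (5.17), SYTL1 (3.06), SYTL4 (2.97), RAB27A (2.22), SYTL5 (0.569) and SYTL2 (0.328). MYO5B and MYO5A overlapped in range there, as did SYTL1 and SYTL4. In knockdown it was MYO5B (6.18), SYTL4 (3.72), MYO5A (3.01), MYO5C (1.61), RAB27A (1.38), SYTL1 (0.866), SYTL2 (0.521), SYTL5 (0.473), RAB27B (0.411) and MLPH (0.383), and each of the last 4 overlapped with its neighbour. MLPH was in the first place in control and the last in knockdown. With the longest transcript as the length, RAB27B was last in knockdown and MLPH the eighth, and SYTL1 stood above RAB27B in control.

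Several of the genes lie close together. MYO5C and MYO5A are 11484 bp apart on chromosome 15, with RAB27A 2673915 bp beyond MYO5A, and MYO5B and RAB27B are 4522766 bp apart on chromosome 18. Over the span from MYO5C through RAB27A, 6 other genes were tested. Of these, 4 were called lower and 1 higher at an adjusted p under 0.05 by edgeR, with log2 fold changes from -4.08 to 4.42. PIGB and PIGBOS1, at -0.58 and -0.26, are among them and overlap RAB27A. Between MYO5B and RAB27B 11 other genes were tested, with 1 called lower and 10 higher and a median of 0.93. Over all genes tested, 37.7% were called lower and 39.4% higher. GNB5, a G protein subunit gene and the nearest tested gene on the other side of MYO5C, rose from 4.03 ± 0.199 to 12.7 ± 0.697 CPM (adjusted p of 6.63e-15 by edgeR). ARPP19, a phosphatase regulator gene and the nearest beyond MYO5A, fell from 218 ± 3.37 to 131 ± 2.27 CPM (adjusted p of 2.01e-16 by edgeR). FAM214A, the next one, singled out after its values were seen, fell from 58.0 ± 4.75 to 3.40 ± 0.509 CPM (adjusted p of 2.61e-21 by edgeR).

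**Figure D4:**
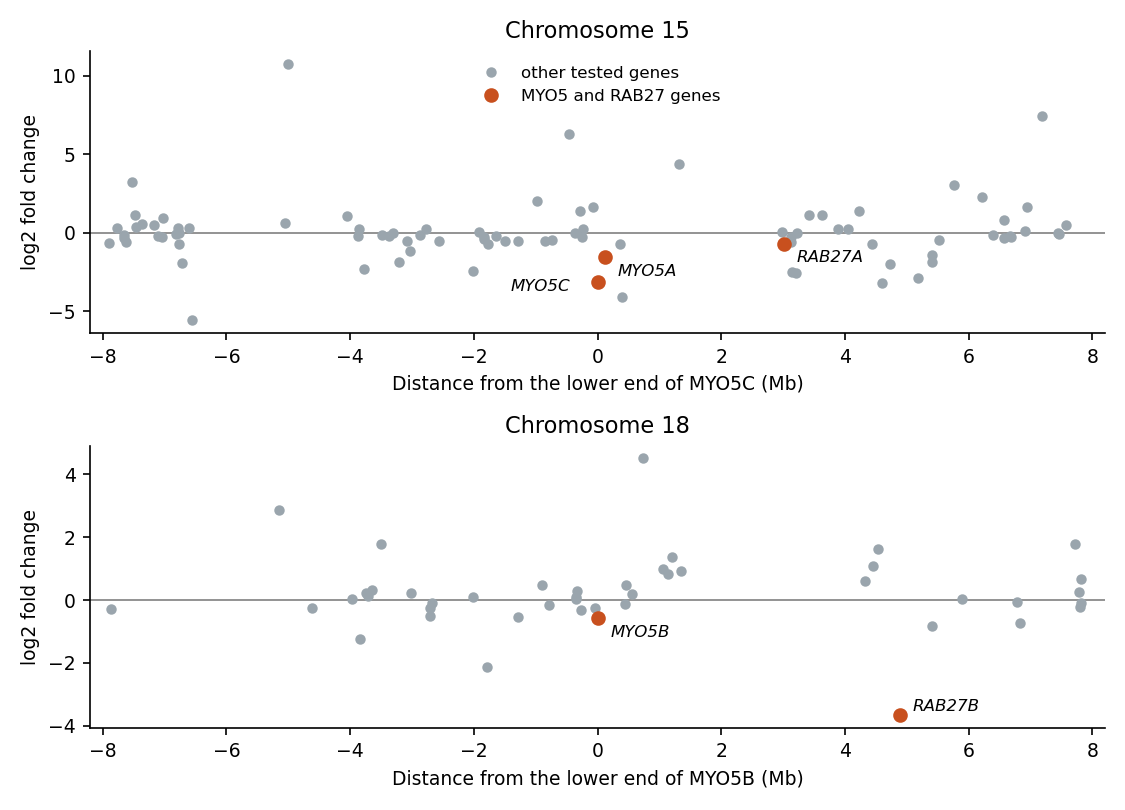
Log2 fold change, knockdown minus control, of every tested gene within 8 Mb of MYO5C on chromosome 15 and of MYO5B on chromosome 18, against the distance of the gene's lower end in Mb. RAB27B is at -3.66, and the median of its 50 nearest tested genes is 0.06. The nearest protein-coding genes toward MYO5B, C18orf54 and POLI, are at 1.62 and 1.07. Those beyond RAB27B, TCF4 and TXNL1, are at -0.81 and -0.05. MYO5A and MYO5C lie side by side at -1.55 and -3.14.

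The other genes of the pathway were taken from 5 lists that do not contain the 10 genes. They were tested with edgeR's quasi-likelihood test adjusted over all 16430 genes. Since the lists were chosen with earlier results of these data known, the adjusted p-values are descriptive and not independent evidence of a change in the pathway. Among RAB27 effectors and regulators, 9 of 16 tested genes fell and 4 rose (median log2 fold change -0.53, beside 0.02 over all genes). SYTL3, the remaining synaptotagmin-like gene, measured 15.4, 15.8, 15.5 and 15.7 CPM in control and 1.91, 1.80, 1.32 and 2.27 CPM in knockdown. All 4 knockdown libraries were below all controls, and SYTL3 fell by 3.08 on the log2 scale (SE 0.159), at an adjusted p of 9.26e-19. EXPH5, an effector also called Slac2-b and thus a relative of melanophilin, fell from 44.4 ± 2.56 to 25.8 ± 3.13 CPM (log2 difference -0.78, with an adjusted p of 2.01e-08). The third relative, MYRIP, which links RAB27A to myosin VIIa, had 2 to 8 counts in every library and was not tested.

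MADD, an exchange factor that activates RAB3 and RAB27, fell from 92.9 ± 2.70 to 43.1 ± 1.21 CPM, and the vesicle-priming gene UNC13B from 30.7 ± 1.37 to 15.1 ± 0.991 CPM (log2 differences -1.11 and -1.03). With the median of their 50 nearest tested genes taken out, these were -0.58 and -0.54. CORO1C, a coronin that binds actin, rose from 22.2 ± 1.49 to 50.6 ± 2.03 CPM (log2 difference 1.18). RABGGTA, a subunit of the enzyme that prenylates RAB proteins, rose by 0.62 on the log2 scale. CHML, a RAB escort protein gene, rose by 1.84 on the log2 scale, at an adjusted p of 6.20e-06, but it shares 373 exon bases with OPN3, which averaged 2608.62 counts, so its counts are uncertain.

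Among partners of myosin V and the RABs of recycling and secretion, 11 of 25 tested genes fell and 11 rose (median -0.06). RAB25, the epithelial RAB11 relative that binds MYO5B, measured 147, 152, 164 and 149 CPM in control and 2.47, 2.79, 2.19 and 2.27 CPM in knockdown. That was a fall in 4 of 4 libraries, at -5.97 on the log2 scale (SE 0.0834), with an adjusted p of 5.48e-29. RAB11FIP5, an adaptor of RAB11, fell by 3.13 on the log2 scale. RAB3D, a GTPase of secretory granules, had a log2 fold change of -2.07. RAB3D shares exon bases with TMEM205 on its strand and with genes on the other. RAB3B, a GTPase of regulated exocytosis, rose from 1.14 ± 0.194 to 6.79 ± 0.615 CPM (log2 difference 2.57, with an adjusted p of 1.19e-14). RAB11FIP2, the RAB11 adaptor that binds MYO5B, rose by 1.04 and RILPL2, a partner of myosin Va, by 0.92. RAB11FIP2 shares 325 exon bases with CASC2 on the opposite strand, which averaged 39.62 counts against 352.6 for RAB11FIP2.

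In the docking and fusion list of exocyst, syntaxin, SNAP, VAMP and synaptotagmin genes, 16 of 26 tested genes fell and 5 rose (median -0.16). This split depended on scaling: with library size only it was 10 and 7, and with upper-quartile scaling 11 and 6. SYT12 fell from 68.5 ± 4.90 to 13.1 ± 0.682 CPM (log2 difference -2.39), SNAP23, the t-SNARE of non-neuronal exocytosis, had a log2 fold change of -1.07 and SYT1, the neuronal calcium sensor, of -1.05. SNAP23 shares 221 exon bases with LRRC57 on the opposite strand, and without the median of its neighbours its value was -0.51. STX11, a syntaxin of cytotoxic granules, had 0, 0, 5 and 2 counts in control and 267, 237, 248 and 263 in knockdown (log2 fold change 7.07, SE 0.875, and 8.33 without control replicate 3; adjusted p of 1.58e-12). STX2 rose by 1.85, and SNAP29 by 0.27, a value that did not pass the threshold once its neighbours' median was taken out (adjusted p = 0.0689 by edgeR). SNAP29 shares 225 exon bases with PI4KA on the opposite strand, which averaged 3440.38 counts against 1705 for SNAP29.

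For assembly of lysosome-related organelles, the organelles that include melanosomes, 6 of 20 tested genes fell and 11 rose (median 0.21). With the median of the 50 nearest tested genes taken out of each gene, 5 were called lower and 7 higher. LYST, mutated in Chediak-Higashi syndrome, rose from 1.94 ± 0.386 to 5.51 ± 0.144 CPM (log2 difference 1.50), and the AP-3 subunit gene AP3S1 by 1.07 and BLOC1S1 by 0.91. AP3D1, the delta subunit of the same AP-3 coat, fell with a log2 fold change of -0.77, HPS6 with -0.58 and SNAPIN with -0.35. AP3S1 shares 378 exon bases with ATG12, BLOC1S1 494 with a readthrough gene, and SNAPIN 43 with ILF2. Without the median of their neighbours AP3S1 was at 0.44, AP3D1 at -0.50 and SNAPIN at -0.21, each still called.

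The other unconventional myosins changed in equal numbers: of 14 tested, 7 fell and 7 rose (median -0.08). MYO1E rose from 20.6 ± 1.02 to 64.3 ± 2.70 CPM and MYO10, the filopodial motor, from 89.5 ± 1.93 to 251 ± 12.2 CPM (log2 differences 1.64 and 1.49). MYO18A fell from 241 ± 12.2 to 115 ± 6.23 CPM, MYO1C from 350.4 ± 14.8 to 193 ± 7.66 CPM and MYO9A from 67.8 ± 4.93 to 41.1 ± 2.30 CPM (log2 differences -1.07, -0.86 and -0.72). The adjusted p of these 5 genes was at most 8.36e-12. MYO18A shares 1394 exon bases with TIAF1 on its strand.

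**Figure D5:**
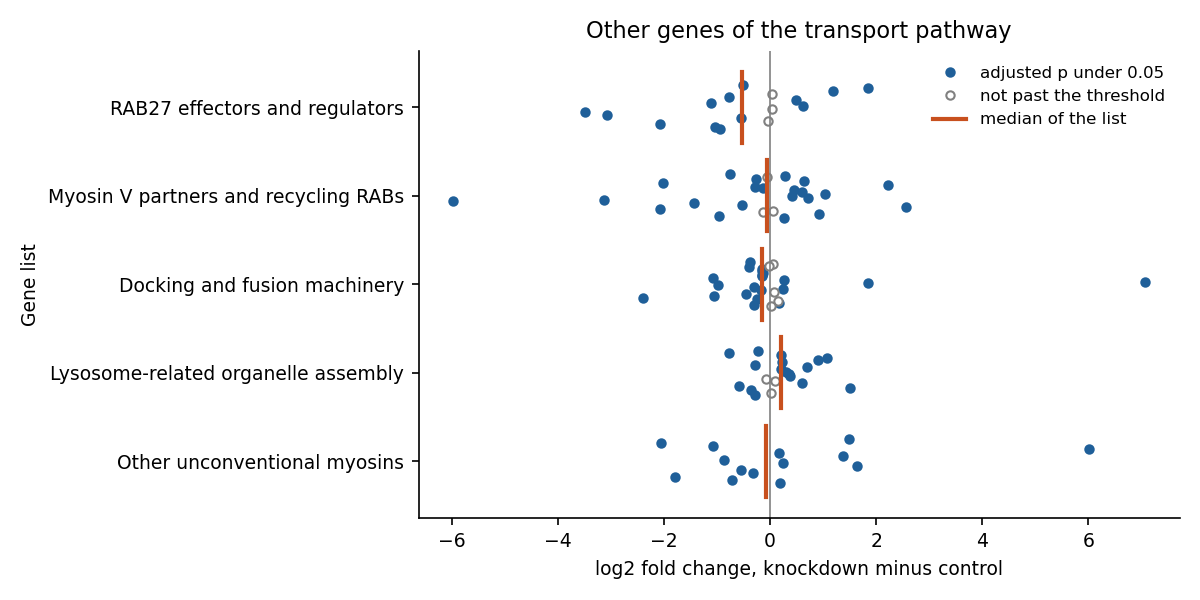
Log2 fold change, knockdown minus control, of each tested gene in the 5 pathway lists (16, 25, 26, 20 and 14 genes), filled where the adjusted p of edgeR was under 0.05, with the median of each list as a bar. The medians lie between -0.53 and 0.21, and RAB25 at -5.97 and STX11 at 7.07 lie farthest out in each direction.

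Calls of this kind were common in these libraries. Over all genes tested 77.1% were called at an adjusted p under 0.05, beside 81.2% of the RAB27 list, 88.0% of the myosin V list, 80.8% of the docking list, 85.0% of the organelle list and all 14 of the other myosins, so a call by itself does not set these lists apart.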

How the data were processed

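Gene expression was measured by paired-end mRNA sequencing of 4 control and 4 FOXA1 knockdown libraries of SKBR3 cells, grouped by their titles. The authors deposited whole-number read counts per gene under Ensembl identifiers, with no scaling, per the file headers and values. Salmon 1.9, DESeq2, FastQC and the build hg38 are named in the submitters' processing notes without their roles; neither the annotation release nor strand handling is given in the sources used here. If Salmon estimated the counts, they were made whole before deposit.

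Analyses used R 4.3.3, edgeR 4.0.16, DESeq2 1.42.0 (as an alternative) and Python 3.11.15. filterByExpr (minimum 10 counts, total 15) kept 16430 of 30434 genes. Libraries were scaled by TMM (factors 0.966 to 1.04), and the groups were compared by the robust quasi-likelihood test, Benjamini-Hochberg adjusted over the whole filtered table, a threshold of 0.05 and a prior count of 0.125. The biological coefficient of variation was 4.56%. SEs come from the spread of log2 CPM (0.5 added to each count). The test was checked on simulated counts.

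Positions and exon lengths come from GENCODE 29 (GRCh38), which matched 96.5% of identifiers. The 10 genes and all lists were chosen with earlier results of these data known. Named genes are these 10, FOXA1, ERBB2, SYTL3, EXPH5, MYRIP, up to 3 largest changes in each direction per list (adjusted p under 0.05, mean of at least 50 counts), 3 genes most like MLPH, and neighbours of MLPH and of the MYO5C and MYO5A pair; the neighbours were added after values were seen. One gene that the rule names is not reported here. Protein sequences are not used here. Alternatives were other scalings and filters, DESeq2, a replicate block, leaving out each library, removal of the median of the 50 nearest genes, and transcript length.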

Additional observations from a re-analysis of the deposited data

Results flagged for a closer look

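Libraries at an end of their group were compared with Dixon's critical value for 4 samples, by the distance to the nearest other library over the range of the group. Over 82 groups of values of named genes this picked out 4, where chance gives about 4.10, and none concerned the 10 transport genes. UNC13B was high in control replicate 3 (32.8 CPM against 30.0 in each of the others, gap ratio 0.988) and MADD low in control replicate 1 (88.9 CPM against 93.9 to 94.8, gap ratio 0.842). SYT12 was low in knockdown replicate 1 (12.1 CPM against 13.3 to 13.5, gap ratio 0.850) and MYO1E high in knockdown replicate 3 (68.3 CPM against 62.7 to 63.2, gap ratio 0.901).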

How the results depend on the processing

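The log2 fold changes of all 10 genes kept their sign under every alternative run. Removing the median of the 50 nearest genes gave -0.50 for RAB27A, -1.33 for MYO5A, -0.69 for MYO5B, -2.92 for MYO5C, -1.93 for SYTL1, 0.97 for SYTL2 and 0.10 for SYTL4, each moved by more than 1 SD between replicates. MYO5B also moved to -0.50 with library size only and to -0.53 with upper-quartile scaling; these scalings moved the median of all genes by 0.084 and 0.059. Leaving out each library kept MLPH between -6.57 and -6.42, RAB27B between -3.73 and -3.56, MYO5C between -3.17 and -3.1 and SYTL5 between -0.38 and -0.18. With the longest transcript as gene length, RAB27B made up 59.4% of RAB27 in control and 15.8% in knockdown, and MYO5C 51.1% and 18.9% of myosin V. The count of genes called over the whole table was 12675, with 15028 without a filter on low counts, 10279 when a mean of 50 counts was required, 12058 by DESeq2 and 12453 with the replicate block. Deviations of same-numbered libraries correlated between -0.035 and 0.168, and those of different number between -0.119 and 0.074. Of 4 controls, 3 correlated best with their own number. The sources used here do not state that numbers pair samples. The main fit therefore left them unpaired, with the replicate block as the alternative. The total called in each list stayed within 1.5 times under every alternative, but by direction the docking genes called lower went from 16 to 10 with library size only, and the organelle genes called higher from 11 to 7 with the median of the nearest genes removed. Low counts limit the precision for SYTL5 and SYTL2, which averaged 55.38 and 105.8 counts, and for MLPH and RAB27B in knockdown.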
